A study of Mus musculus with 8 samples.

Results

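The nuclear-encoded subunits of the mitochondrial respiratory chain were read in whole mouse skin, complex by complex. Members were the genes whose RefSeq accession on the array carried a symbol beginning with Ndufa, Ndufb, Ndufc, Ndufs, Ndufv, Uqcr, Cox4i, Cox5 to Cox8 or Atp5, together with Sdha to Sdhd and Cyc1. The assembly factors named Ndufaf were left out. This gave 86 genes on 115 probes, of 20280 genes named on the array and 55681 probes in all. Complex I had 36 members, complex II 4, complex III 9, complex IV 20 and complex V 17. Ndufa4, now known as a complex IV subunit, and its paralog Ndufa4l2 were read with complex IV. Subunits encoded by the mitochondrial genome were not analysed here.

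Total RNA of whole skin was hybridised to 8 one-colour arrays, 4 of skin labelled DTG and 4 of skin labelled Control. By its title the series studies skin that overexpresses the RNA-binding protein Musashi1, and the comparison asks which transcripts differ between the groups. What DTG stands for, the promoter of any transgene, the strain, the age and any pooling of animals are not given in the sources used here. All 8 samples are labelled male. The labels do not say that the 4 samples of a group came from separate animals, so p-values reflect the scatter of these 4 and 4 samples and part of it may be technical.

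The respiratory chain passes electrons from NADH through complex I, or from succinate through complex II, to ubiquinone. From there they travel by complex III, cytochrome c and complex IV to oxygen, and complex V uses the resulting proton gradient to make ATP. Complex I combines catalytic core subunits with many accessory subunits, and several small subunits of complex IV exist as a broadly expressed form and a form typical of heart and skeletal muscle. Whole skin holds a thin sheet of skeletal muscle and a layer of fat beside epidermis and dermis, so it can read both forms.

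Many promoters of these genes are known to carry sites for nuclear respiratory factor 1, for ETS factors such as GABP, or for YY1. RefSeq promoters (build GRCm38.p6, 250 bases before to 50 after a gene's start) were given for 69 of the 86 genes, 74 promoters in all. They were searched on both strands for GCGC followed by any base and TGCGC (nuclear respiratory factor 1), for CCGGAAG (ETS) and for AAGATGGC (YY1). The first was found in 18 of the 74 (24.3%), the second in 17 (23.0%) and the third in 10 (13.5%). Among all 32851 promoters of the same length the shares were 4.60%, 8.86% and 2.75%. At least 1 of the 3 stood in 39 of the 74 (52.7%), against 14.7% of all promoters. Of the 18 promoters given for genes called lower in DTG, 10 held one. A match describes letters in a window and is not a site in use. The following 6 promoters show each motif in a gene called lower (Ndufa6, Ndufs7, Sdhb), then a complex IV subunit in its broadly expressed form (Cox8a) and in its muscle form (Cox8b), and a further muscle form (Cox7a1). Capitals mark the matches, in Cox8a on the opposite strand. The last 2 sequences hold none of the 3 motifs. The promoter of Cox7a2, the broadly expressed partner of Cox7a1, holds none either and is not shown. The windows are chr15:82354242-82354541 on the minus strand for Ndufa6, chr10:80249199-80249498 on the plus strand for Ndufs7 and chr4:140961021-140961320 on the plus strand for Sdhb. Those of the complex IV genes are chr19:7217567-7217866 on the minus strand for Cox8a, chr7:140900397-140900696 on the minus strand for Cox8b and chr7:30183921-30184220 on the plus strand for Cox7a1.
Ndufa6: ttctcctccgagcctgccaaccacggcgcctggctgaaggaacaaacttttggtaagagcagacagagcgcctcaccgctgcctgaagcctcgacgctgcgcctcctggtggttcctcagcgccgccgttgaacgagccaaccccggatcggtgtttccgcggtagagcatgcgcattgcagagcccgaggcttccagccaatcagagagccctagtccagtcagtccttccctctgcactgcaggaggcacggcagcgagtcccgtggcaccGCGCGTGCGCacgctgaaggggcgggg
Ndufs7: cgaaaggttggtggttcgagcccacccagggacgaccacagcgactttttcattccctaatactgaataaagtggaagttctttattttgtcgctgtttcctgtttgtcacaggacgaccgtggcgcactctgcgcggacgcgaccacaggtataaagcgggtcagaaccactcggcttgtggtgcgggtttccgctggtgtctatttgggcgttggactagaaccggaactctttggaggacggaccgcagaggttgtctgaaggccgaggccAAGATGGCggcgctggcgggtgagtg
Sdhb: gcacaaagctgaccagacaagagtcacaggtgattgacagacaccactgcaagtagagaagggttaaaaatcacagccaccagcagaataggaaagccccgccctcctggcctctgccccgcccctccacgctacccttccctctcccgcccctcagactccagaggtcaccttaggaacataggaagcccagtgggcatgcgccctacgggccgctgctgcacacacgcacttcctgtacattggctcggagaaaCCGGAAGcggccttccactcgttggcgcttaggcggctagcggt
Cox8a: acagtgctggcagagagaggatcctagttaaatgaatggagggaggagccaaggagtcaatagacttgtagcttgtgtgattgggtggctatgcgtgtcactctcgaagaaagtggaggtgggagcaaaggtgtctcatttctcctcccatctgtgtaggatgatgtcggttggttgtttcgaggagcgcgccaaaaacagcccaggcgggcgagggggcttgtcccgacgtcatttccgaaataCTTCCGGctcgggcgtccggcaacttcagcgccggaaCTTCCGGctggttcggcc
Cox8b: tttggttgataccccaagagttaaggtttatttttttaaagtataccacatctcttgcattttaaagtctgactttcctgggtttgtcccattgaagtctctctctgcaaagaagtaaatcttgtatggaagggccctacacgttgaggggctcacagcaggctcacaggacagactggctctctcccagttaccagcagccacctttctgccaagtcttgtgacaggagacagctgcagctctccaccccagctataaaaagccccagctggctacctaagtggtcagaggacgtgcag
Cox7a1: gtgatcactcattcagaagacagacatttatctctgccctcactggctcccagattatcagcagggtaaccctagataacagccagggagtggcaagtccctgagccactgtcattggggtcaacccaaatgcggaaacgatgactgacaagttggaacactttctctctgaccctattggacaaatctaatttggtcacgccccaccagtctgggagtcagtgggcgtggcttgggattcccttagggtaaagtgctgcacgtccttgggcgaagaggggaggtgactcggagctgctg

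Array measures moved with the groups. Spots well above background made up 69.8% ± 1.23 in DTG and 82.7% ± 2.64 in Control (SD, n = 4 each; p = 0.0286 by exact two-sided permutation, the smallest possible, or 0.0381 adjusted over 4 measures). Negative-control spots and the spike-in signal minus the array's 75th percentile also differed without overlap, each with the same p and adjusted p. The log2 spike-in signal itself overlapped, at 11.88 to 12.14 in DTG and 12.08 to 12.53 in Control. All arrays lay on 1 slide, DTG in row 2 and Control in row 1, so the group and the slide row cannot be told apart. Of 8 keratinocyte markers on the list, 7 were tested, with mean levels of 3.28 to 4.83, above the array's 75th percentile. Xist was high on DTG 1, 3 and 4 and on Control 2 and 4, which goes against the male label, and low on DTG 2, Control 1 and Control 3. A probe for Msi1, the gene of Musashi1, averaged 4.01 on the 3 DTG arrays that measured it and -2.80 on the 4 Control arrays, while the other Msi1 probe differed by -0.03. Levels here and below are log2 signals minus the array's 75th percentile.

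Across the whole chain the subunit genes read slightly lower in DTG skin on the scale of the array's 75th percentile, a direction that turned on the spike-in scale, and no member was called higher on the 75th percentile scale. Of the 84 members with signal well above background, 18 were called lower in DTG (limma, adjusted p under 0.05 over 17756 genes), 0 were called higher and 66 were not called. This is 21.4% of the members, against 21.3% of all tested genes called lower, so in this setting the share of calls was that of the array as a whole. Calls in the other direction made up 11.1% of all genes and calls in either direction 32.4%. At an unadjusted p under 0.05 there were 40 members lower and 0 higher. Every DTG array lay below every Control array for 42 of the 84 members, against 23.2% of all tested genes, and every DTG array lay above for 0, against 11.4%. Among the 4439 tested genes with the brightest signal, which included 79 of the members, 1160 were separated downward and 801 (18.0%) were called lower. In other settings the shares parted. With an intensity trend 32 of 84 members were called lower, against 21.7% of all genes, and with median scaling 25, against 22.8%. Under quantile scaling 10 were, against 18.5%, and under spike-in scaling 1, against 2.32%. In whole tissue, fewer cells of a type and less RNA per cell cannot be told apart.

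The shift was small and much the same in every complex. The median log2 fold change, DTG minus Control, was -0.23 over the members, with quartiles of -0.31 and -0.19. Over all tested genes it was -0.15, with quartiles of -0.40 and 0.14, and over the 4439 brightest -0.13. Thus 80 of 84 members lay below 0, as did 11462 of the 17756 genes. The medians by complex were -0.22 for complex I, -0.19 for complex II, -0.20 for complex III, -0.23 for complex IV and -0.24 for complex V. The members were spread over 19 chromosomes, with 9 of them on chromosome 7 and 3 on the X chromosome. Among the members above 0 were Uqcrfs1, Cox4i2 and Cox6b2, and none of them was called. Of 22 genes with several measured probes, all 51 probes lay below 0. The widest gap between probes of 1 gene, 0.29, was that of Uqcr10, a small complex III subunit singled out after its values were seen.

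**Figure D1:**
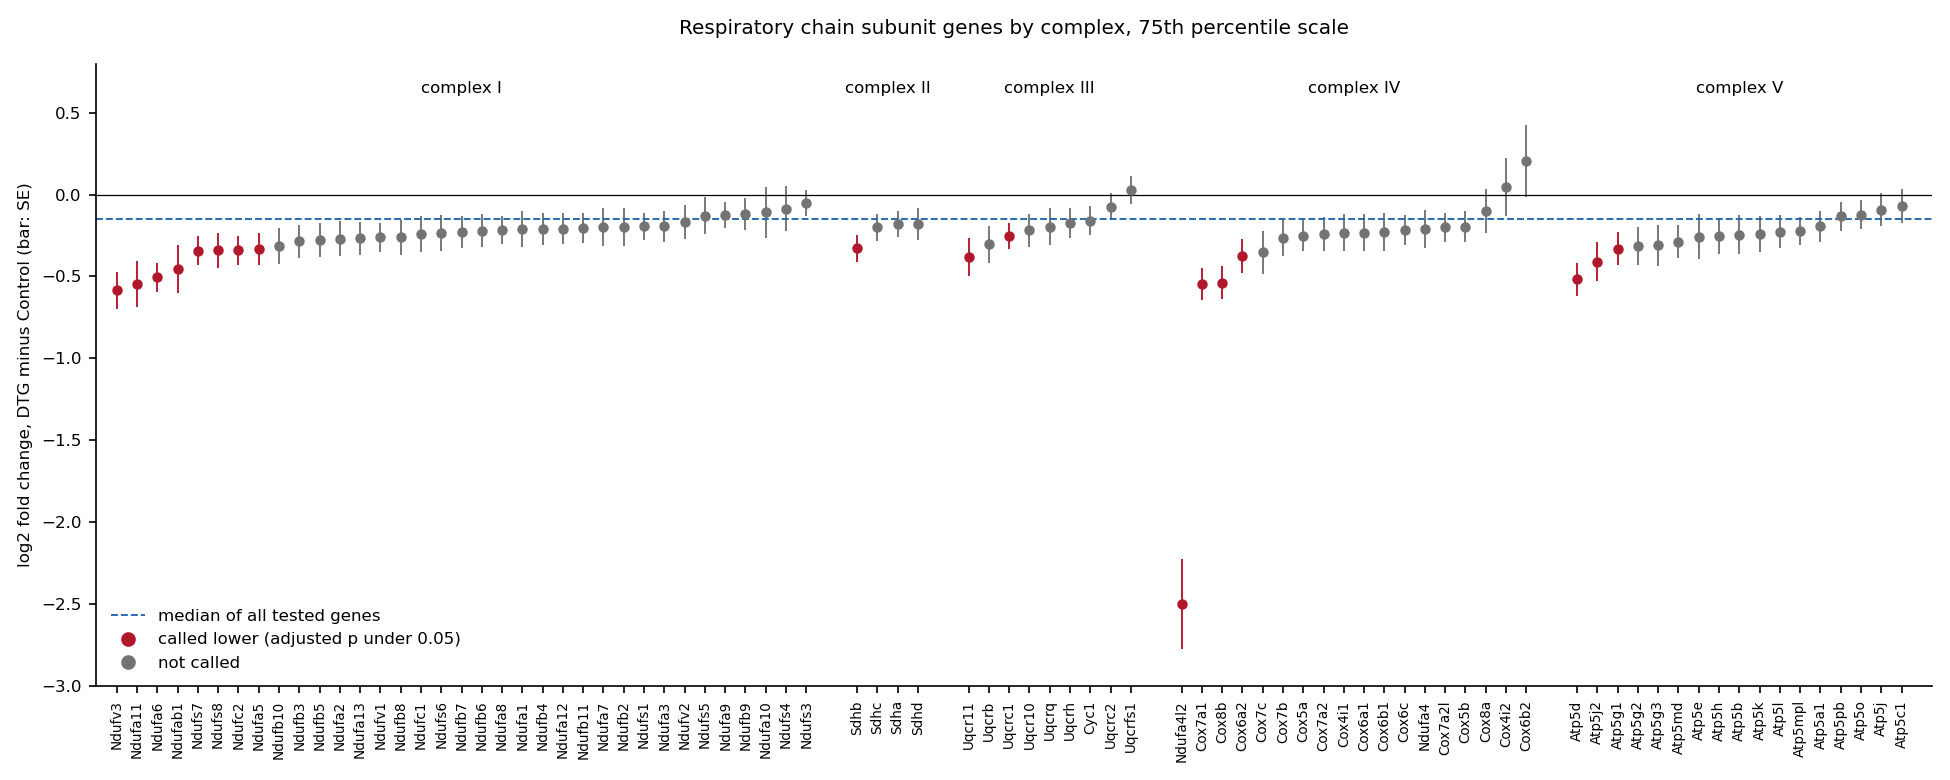
Log2 fold change (DTG minus Control, bar: SE, 4 arrays per group) of 83 of the tested subunit genes, ordered within complexes I to V; red points were called lower and the dashed line marks the median of all tested genes, -0.15. Ndufa4l2 at -2.50 stands apart from the other members, which lie between -0.59 and 0.21.

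Members were high or low on the same arrays, also within a group. Measured from each gene's own mean over the 8 arrays, the median member stood at -0.07, -0.21, -0.11 and -0.10 on DTG 1 to 4, and at 0.29, 0.05, 0.17 and -0.02 on Control 1 to 4. The groups did not overlap, but Control 4 lay closer to the DTG arrays than to Control 1. Control 1 was the highest array for 63 of the 84 members and DTG 2 the lowest for 62. The median over all tested genes stood at -0.03, -0.11, -0.05 and -0.06 on DTG 1 to 4. On Control 1 to 4 it stood at 0.11, 0.06, 0.08 and 0.01. Control 1 was highest and DTG 2 lowest there too, so this order of arrays was not particular to the members. Taken within slide columns, where 1 DTG array stood below 1 Control array, 80 of 83 measured members were lower in DTG in column 1, 79 of 84 in column 2, 79 of 82 in column 3 and 64 of 84 in column 4. The median differences were -0.35, -0.26, -0.28 and -0.07, beside -0.15, -0.18, -0.13 and -0.09 for all tested genes. In column 4 the members' median was no lower than that of all genes.

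Single arrays and the Xist classes bore on the size of the shift. Without Control 1 the members' median was -0.17 with 11 called lower, against 18.2% of all genes. Without Control 4 it was -0.28 with 23 called lower, against 19.4%. Leaving out Control 3 gave 6 members called lower, against 14.3% of all genes. Leaving out DTG 2 gave 7, against 14.7%, and leaving out DTG 4 gave 10, against 16.1%. On the 5 arrays of high Xist alone (3 DTG, 2 Control), 1 member was called, against 7.90% of all genes called lower. The members' median there was -0.10, against -0.11 for all genes. On the 3 arrays of low Xist alone (1 DTG, 2 Control) it was -0.44, against -0.21 for all genes. The lone DTG array gives no DTG spread there, so no count of calls is given for that setting. The member called on the high-Xist arrays was Ndufa4l2.

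**Figure D2:**
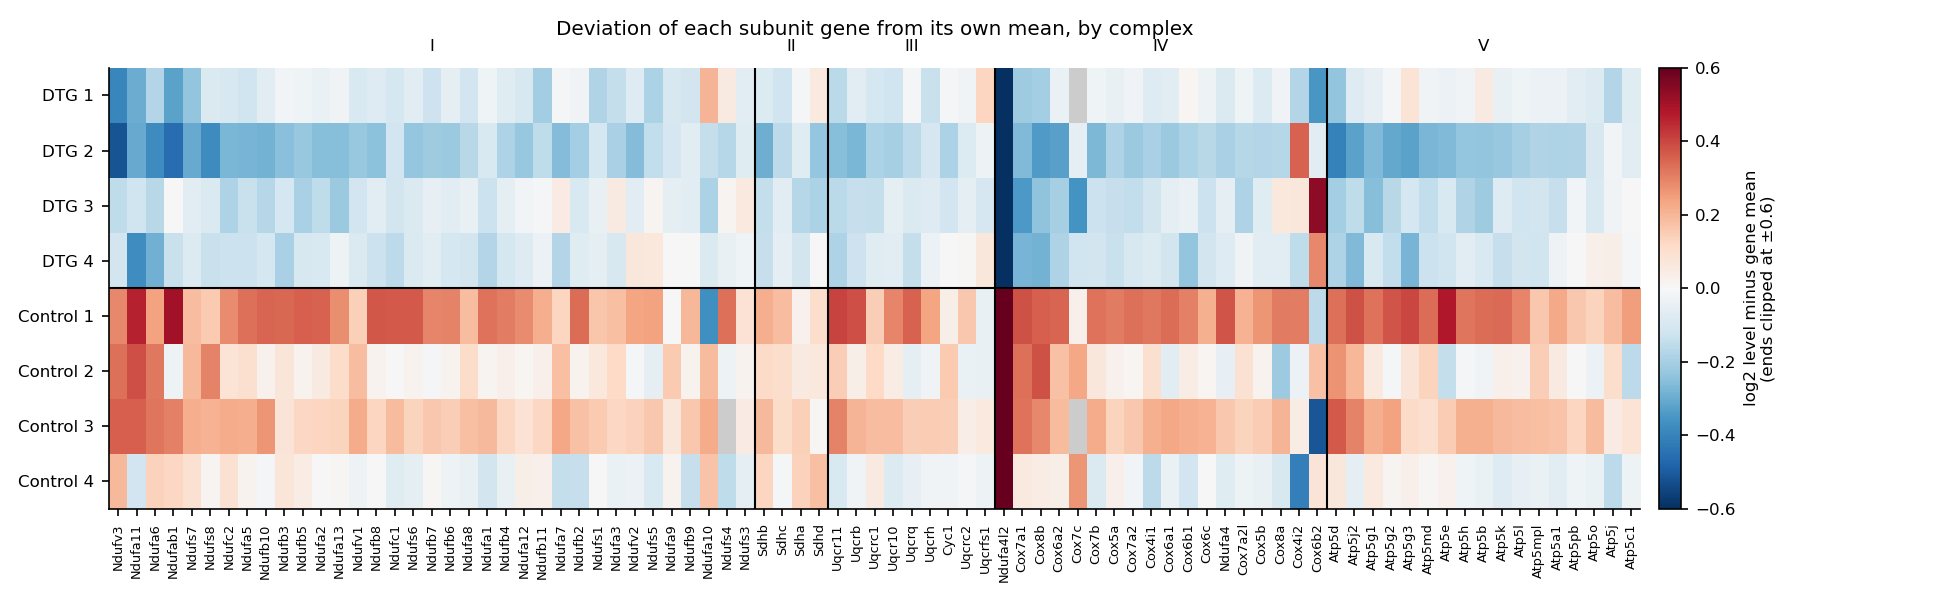
Deviation of 83 subunit genes, each from its own mean over the arrays (colour, log2 units, ends clipped), with the 4 DTG arrays above the 4 Control arrays and the genes ordered by complex; grey cells are spots left out as outliers. The median member stands at -0.21 on DTG 2 (mostly blue) and at 0.29 on Control 1 (mostly red), and Ndufa4l2 reaches the ends of the colour scale on most arrays.

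In complex I, 8 of the 36 members were called lower, beside 21.3% of all tested genes. By role, 2 of the 7 core subunits and 6 of the 29 accessory subunits were among them, with medians of -0.19 and -0.23. DTG arrays lay below all Control arrays for 22 members, beside 23.2% of all tested genes. The largest change was in Ndufv3, a small accessory subunit of the NADH-binding module. Its levels were 2.86, 2.74, 3.10 and 3.14 on DTG arrays, against 3.54, 3.59, 3.61 and 3.45 on Control arrays. All DTG arrays were below all Control arrays, and DTG 2 was the lowest. The log2 fold change was -0.59 (SE 0.11, limma adjusted p = 0.00613), and a second, dimmer probe of the gene gave -0.44.

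Ndufa6, an accessory subunit of the LYR protein family, whose promoter carries the nuclear respiratory factor 1 motif shown above, read 3.13, 2.93, 3.14 and 3.02 in DTG, against 3.55, 3.62, 3.63 and 3.45 in Control. The groups were separated by more than the spread within either, with a fold change of -0.51 (SE 0.09, limma adjusted p = 0.0045). Ndufa11, an accessory subunit of the membrane arm, read 1.09, 1.08, 1.27 and 1.02 in DTG, against 1.85, 1.77, 1.75 and 1.27 in Control. Control 4 lay just above the highest DTG array here and the other Control arrays well above it, for a fold change of -0.55 (SE 0.14, limma adjusted p = 0.0189). Ndufab1, the mitochondrial acyl carrier protein that also serves fatty acid synthesis, had overlapping groups, with 0.33 to 0.79 in DTG and 0.75 to 1.29 in Control, and its fold change of -0.45 was just past the threshold (adjusted p = 0.045).

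The 2 core subunits called were Ndufs7 and Ndufs8, both carriers of iron-sulfur clusters on the path to ubiquinone. Ndufs7 averaged 3.34 ± 0.12 in DTG and 3.68 ± 0.06 in Control (SD, n = 4 each), and Ndufs8 averaged 2.52 ± 0.14 in DTG and 2.86 ± 0.12 in Control. Each fell by 0.34 on the log2 scale without overlap of the groups (limma adjusted p = 0.0214 and 0.0373). The accessory subunits Ndufc2 and Ndufa5 fell by 0.34 and 0.33. Ndufs4 lacked 1 Control array, whose spot was left out, and was not called.

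By name family, the calls of complex I fell in all but the Ndufb genes when the brightest probe stood for its gene. Differences between families were not tested. Of the 13 Ndufa genes read with complex I, 4 were called, of the 8 Ndufs genes 2, of the 2 Ndufc genes 1 and of the 3 Ndufv genes 1. Of the 10 Ndufb genes, which encode accessory subunits of the membrane arm, 0 were called by limma, although DTG arrays lay below all Control arrays for 8 of them. Among all tested genes 21.3% were called lower and 23.2% were separated downward. The Ndufb genes lay between -0.32 and -0.12, with a median of -0.22 that equalled the -0.22 of the Ndufa genes. Their adjusted p ran from 0.0569 to 0.373. This depended on the probe. Second, dimmer probes of Ndufb5 and Ndufb11, singled out after their values were seen, gave -0.37 and -0.48. Both were called when probes were tested singly (limma adjusted p = 0.0201 and 0.0131), and both genes were called with kept probes averaged.

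Complex II oxidises succinate and is the only complex encoded wholly in the nucleus, so all its subunits were measured. Sdhb, its iron-sulfur subunit, read 3.35, 3.14, 3.29 and 3.30 in DTG, against 3.65, 3.55, 3.63 and 3.56 in Control. The 2 groups did not overlap, with a fold change of -0.33 (SE 0.08, limma adjusted p = 0.0193), and its second probe gave -0.32. The flavoprotein Sdha (-0.18, adjusted p = 0.118) and the membrane anchors Sdhc (-0.20, adjusted p = 0.0928) and Sdhd (-0.18, adjusted p = 0.188) were not called. A second, dimmer probe of Sdhc gave -0.29 and was called when probes were tested singly (limma adjusted p = 0.0333). DTG lay below Control on every array for Sdha and Sdhc, while the groups overlapped for Sdhd.

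In complex III, 2 of 9 members were called lower, beside 21.3% of all tested genes. Uqcr11, a small membrane subunit, averaged 3.60 ± 0.04 in DTG and 3.98 ± 0.22 in Control (SD, n = 4 each). It fell by 0.38 (SE 0.12, limma adjusted p = 0.0368), with Control spread from 3.70 to 4.19. Uqcrc1, a core protein of the matrix side, averaged 2.96 ± 0.05 in DTG and 3.22 ± 0.06 in Control (SD, n = 4 each) and fell by 0.25 (limma adjusted p = 0.0381). Uqcrb, which binds near the ubiquinone site, gave -0.30 with separated groups and was not called (adjusted p = 0.067). The Rieske iron-sulfur protein Uqcrfs1 was not called. It read 2.73 to 2.96 in DTG and 2.78 to 2.89 in Control, a difference of 0.03 (SE 0.09). The 7 members of complex III not called lay between -0.30 and 0.03 by their brightest probes. A dimmer probe of Uqcr10 gave -0.50 and was called when probes were tested singly (limma adjusted p = 0.0359).

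Complex V, the ATP synthase, had 3 of 17 members called lower, beside 21.3% of all tested genes, and all 17 lay below 0. Atp5d, the delta subunit of the rotating central stalk, read 3.27, 3.10, 3.31 and 3.32 in DTG, against 3.84, 3.78, 3.88 and 3.58 in Control. No DTG array came within the Control range, and the fold change was -0.52 (SE 0.10, limma adjusted p = 0.00646). Atp5j2, the f subunit of the membrane sector, fell by 0.41 (limma adjusted p = 0.0291), and its 2 probes gave the same value to 2 decimals. Atp5g1, Atp5g2 and Atp5g3 encode the same c-ring protein with different import sequences. They gave -0.33, -0.31 and -0.31, and of these Atp5g1 was called (adjusted p = 0.0376) and the other two were not (0.0723 and 0.091). The catalytic F1 sector had 1 of 5 genes called, with a median of -0.24, and the subunits outside it had 2 of 12 called, with a median of -0.25. The 14 members of complex V not called lay between -0.31 and -0.07, and the groups were separated for 1 of them.

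In complex IV, cytochrome c oxidase, 4 of the 18 tested members were called lower, beside 21.3% of all tested genes. These 4 were Ndufa4l2 and 3 small subunits in their heart and muscle forms. Cox7a1 read 2.92, 2.86, 2.79 and 2.85 in DTG, against 3.51, 3.46, 3.45 and 3.19 in Control. DTG arrays were close together and below all Control arrays, with a fold change of -0.55 (SE 0.10, limma adjusted p = 0.00435). Cox8b read 2.90, 2.76, 2.86 and 2.82 in DTG, against 3.46, 3.48, 3.39 and 3.15 in Control. Again the groups did not meet and Control 4 was the nearest to DTG, with a fold change of -0.54 (SE 0.10, limma adjusted p = 0.00525). Cox6a2 averaged 3.69 ± 0.12 in DTG and 4.07 ± 0.13 in Control (SD, n = 4 each) and fell by 0.38 (limma adjusted p = 0.0244). The broadly expressed forms Cox7a2, Cox8a and Cox6a1 gave -0.24, -0.10 and -0.23 and were not called, nor was Cox7a2l (-0.20), which is known for joining complexes III and IV. Cox4i1 and Cox6b1, broadly expressed, each gave -0.23, and Cox7b gave -0.27, all not called. Cox7c lacked 1 spot in each group, left out as an outlier, and was not called either. Cox4i2, an oxygen-responsive form known from lung, and Cox6b2, known from testis, gave 0.04 and 0.21 at low signal, with overlapping groups. Cox7b2 and Cox8c, also known from testis, were well above background on 0 of 8 arrays and were not tested.

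The difference between a restricted form and its broad counterpart was read within each array, where scaling by 1 number per array cancels. The offset between 2 probes has no meaning of its own, and only its difference between groups was compared, over 6 pairs chosen after the data were seen. For Cox8b minus Cox8a it was -0.52, -0.51, -0.64 and -0.55 on DTG arrays, against -0.29, 0.26, -0.25 and -0.20 on Control arrays. All DTG arrays were below all Control arrays, by -0.44 on average (p = 0.0286 by exact two-sided permutation, the smallest possible, or 0.0571 adjusted over 6 pairs). Cox7a1 minus Cox7a2 gave -0.30, without overlap and with the same p and adjusted p, so neither pair passed the correction. Cox6a2 minus Cox6a1 gave -0.14 with overlapping arrays (exact permutation p = 0.0857, adjusted 0.129). Cox4i2 minus Cox4i1 gave 0.28 and Cox6b2 minus Cox6b1 0.43, both with overlap (exact permutation p = 0.114 and 0.229). Without Control 2 the Cox8 pair gave -0.31.

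**Figure D3:**
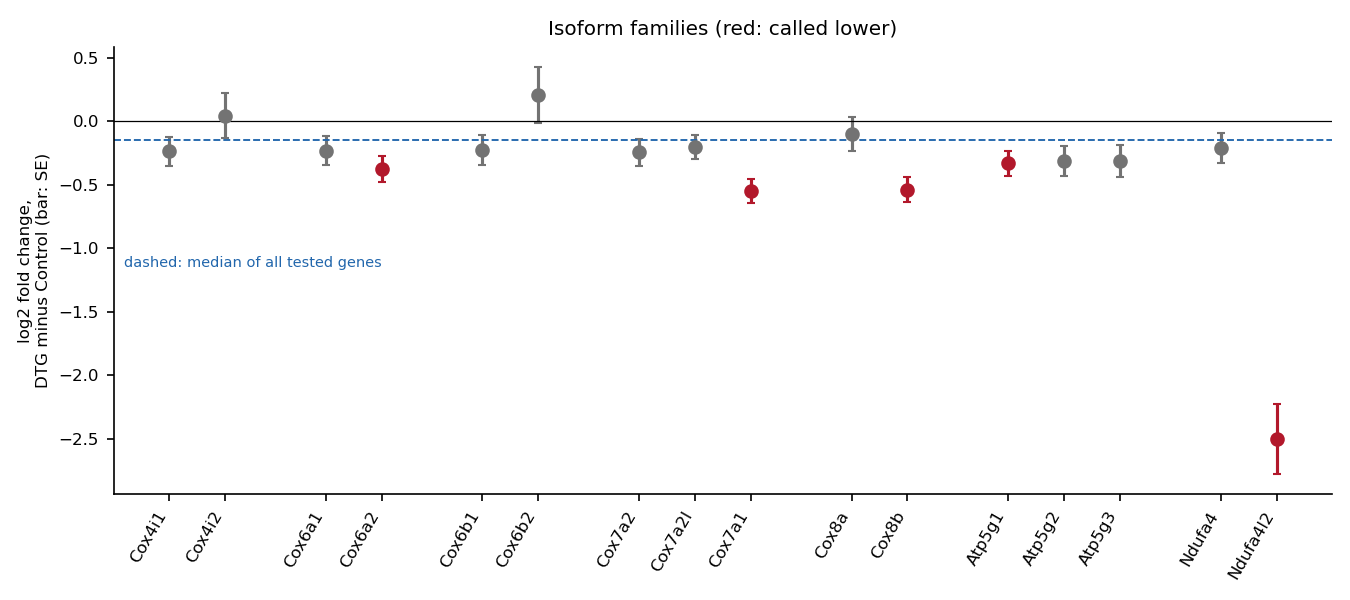
Log2 fold change (DTG minus Control, bar: SE, 4 arrays per group) of subunit genes grouped into isoform families, the broad form first and the restricted form last where one exists; red points were called lower. Cox6a2, Cox7a1 and Cox8b lie below their broad partners, Cox4i2 and Cox6b2 above theirs, and Ndufa4l2 far below Ndufa4.

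Some markers of skeletal muscle were called lower beside Cox6a2, Cox7a1 and Cox8b. Of 18 muscle markers tested, 5 were called lower and 0 higher, with a median of -0.25, beside 21.3% of all genes called lower. Under quantile scaling 1 was called lower, and 0 were called in either direction under spike-in, chain-median or no scaling, with a spike-in median of 0.22. Their summed signal, in units of the array's 75th percentile, ran from 226 to 239 in DTG and from 265 to 303 in Control. Among them the troponins Tnni2 and Tnnt3 changed by -0.40 and -0.34 and myoglobin (Mb) by -0.40, while creatine kinase (Ckm) gave -0.01 and was not called. Of the 18 muscle markers, 2 lay above 0, up to 0.60. Cox7a1 and Cox8b are also known from brown fat. Of 8 brown adipocyte markers 1 was called lower and 1 higher, with sums of 22.4 to 27.9 in DTG and 30.6 to 33.9 in Control, and the defining marker Ucp1 was near the bottom of the scale, at -4.56 in DTG and -5.26 in Control. Of 12 adipocyte markers 9 were called lower and 0 higher, with sums of 87.8 to 92.2 in DTG and 95.9 to 130 in Control. Of these 12, 2 lay above 0, up to 1.32, and 1 was higher at an unadjusted limma p under 0.05. Spike-in scaling gave 2 lower and 1 higher for the adipocyte markers. For the brown adipocyte markers spike-in scaling gave 0 lower and 3 higher, beside 2.32% and 30.5% of all genes. The part of these cells in the subunit changes was not tested.

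Ndufa4l2 stood apart from the rest of the chain. It encodes a paralog of Ndufa4 that is known to be induced in low oxygen and to lower respiration. It read -0.83, -0.01, -0.54 and -0.86 in DTG, against 2.51, 1.39, 2.18 and 1.67 in Control. The lowest Control array was above the highest DTG array by more than the SD of either group, and no other member separated as far. The fold change was -2.50 (SE 0.28, limma adjusted p = 0.000547), a level 5.65-fold lower in DTG skin than in Control skin. It was called lower in all 25 alternative settings, between -2.68 and -2.03, although the one with the low-Xist arrays alone had 1 DTG array and so no DTG spread of its own. Ndufa4 itself read 3.80 to 3.93 in DTG and 3.92 to 4.37 in Control and was not called (-0.21, adjusted p = 0.198). Ndufa4l2 minus Ndufa4 within an array gave -2.29 without overlap (p = 0.0286 by exact two-sided permutation, the smallest possible, or 0.0571 adjusted over 6 pairs). Within slide columns the differences of Ndufa4l2, DTG minus Control, were -3.34, -1.41, -2.72 and -2.53 in columns 1 to 4, all in 1 direction.

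Ndufa4l2 is known from pericytes and smooth muscle, and markers of these cells did not pass the test. Of 10 tested, 0 were called in either direction by limma, with 2 lower and 0 higher at an unadjusted p under 0.05 and a median of -0.04. Their sums ran from 22.2 to 27.0 in DTG and from 22.0 to 28.1 in Control, so the ranges overlapped. On the spike-in scale 4 of the 10 were called higher and 0 lower, beside 30.5% and 2.32% of all genes. The ion channel gene Kcnj8 gave -0.82 (adjusted p = 0.0553) and Higd1b -0.54 (adjusted p = 0.0561), on the 75th percentile scale. On that scale 2 of the 10 markers lay above 0, up to 0.42. Of the remaining marker lists, on the 75th percentile scale, keratinocyte markers had 4 of 7 called lower and 1 higher, fibroblast markers 2 of 6 lower, hair follicle and sebaceous markers 2 of 7 lower, leukocyte markers 1 of 5 lower, male germ cell markers 1 of 5 lower, and endothelial markers 0 of 5, with 0 also at an unadjusted p under 0.05. Among all genes 21.3% were called lower and 11.1% higher on that scale. Spike-in scaling gave 0 lower in these 6 lists, with 1 higher each for keratinocyte, fibroblast and male germ cell markers. Quantile scaling gave 0 lower for fibroblast markers. Summed signal was 93.0 to 121 in DTG and 122 to 162 in Control for keratinocyte markers, and 107 to 130 in DTG and 124 to 176 in Control for fibroblast markers. Their part in the members' values was not tested either.

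**Figure D4:**
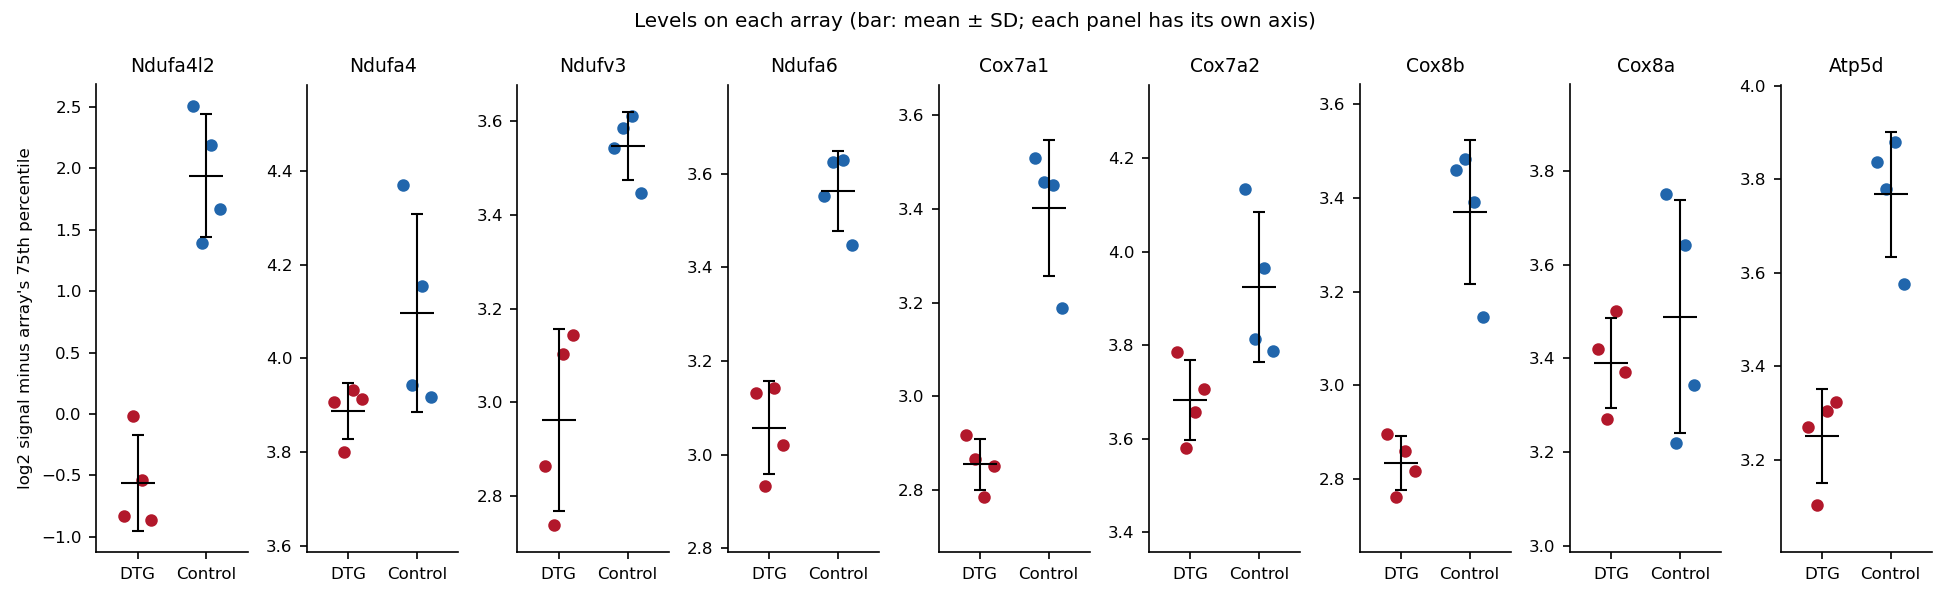
Levels of 9 subunit genes on each array (log2 signal minus the array's 75th percentile, each panel with its own axis; red, DTG; blue, Control; bars, mean ± SD of 4 arrays). DTG points lie below all Control points for Ndufa4l2, Ndufv3, Ndufa6, Cox7a1, Cox7a2, Cox8b and Atp5d, and the groups overlap for Ndufa4 and Cox8a.

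To see which members departed from the chain itself, each array was also scaled to the median of its tested members, a setting added after the data were seen. By construction the members' median then lay near 0, at 0.02, and that of all genes at 0.10. On this scale 6 members were called lower and 0 higher, against 7.41% of all genes called lower and 21.6% called higher. The 6 were Ndufa4l2 (-2.25), Ndufv3 (-0.34), Cox7a1 (-0.30), Cox8b (-0.29), Atp5d (-0.27) and Ndufa6 (-0.26), with limma adjusted p from 0.000841 to 0.0433. The other 12 members called on the 75th percentile scale did not pass the test here. Among them Ndufa11 gave -0.30, as large as Cox7a1 but with a wider error (SE 0.11, adjusted p = 0.0775), and Ndufab1 gave -0.21 (adjusted p = 0.214).

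The direction of the chain's shift depended on how the arrays were scaled. Under quantile scaling the median was -0.06 over the members and -0.09 over all genes, with 10 members called lower, against 18.5% of all genes, and 0 higher, against 12.9%. Without scaling it was -0.10 over the members, against -0.02 over all genes, with 5 called lower, against 8.97% of all genes. On the scale of the spike-in RNA the members' median turned to 0.25, below the 0.33 of all genes. There 1 member, Ndufa4l2, was called lower, against 2.32% of all genes, and 6 higher, against 30.5%. The 6 were Cox4i2 and Uqcrfs1 and, singled out after their values were seen, Atp5c1, Atp5j, Ndufs3 and Uqcrc2. Of the 18 members called lower on the 75th percentile scale, 7 lay below 0 on the spike-in scale and 11 above it. The 7 were Ndufa4l2, Ndufv3, Ndufa6, Ndufa11, Cox7a1, Cox8b and Atp5d. On the 75th percentile scale the members' median lay 0.08 below that of all genes. Spike-in, chain-median or no scaling differ from it by 1 number per array, so they leave this gap nearly the same by construction. Quantile scaling can change the gap and put the members' median 0.02 above that of all genes.

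**Figure D5:**
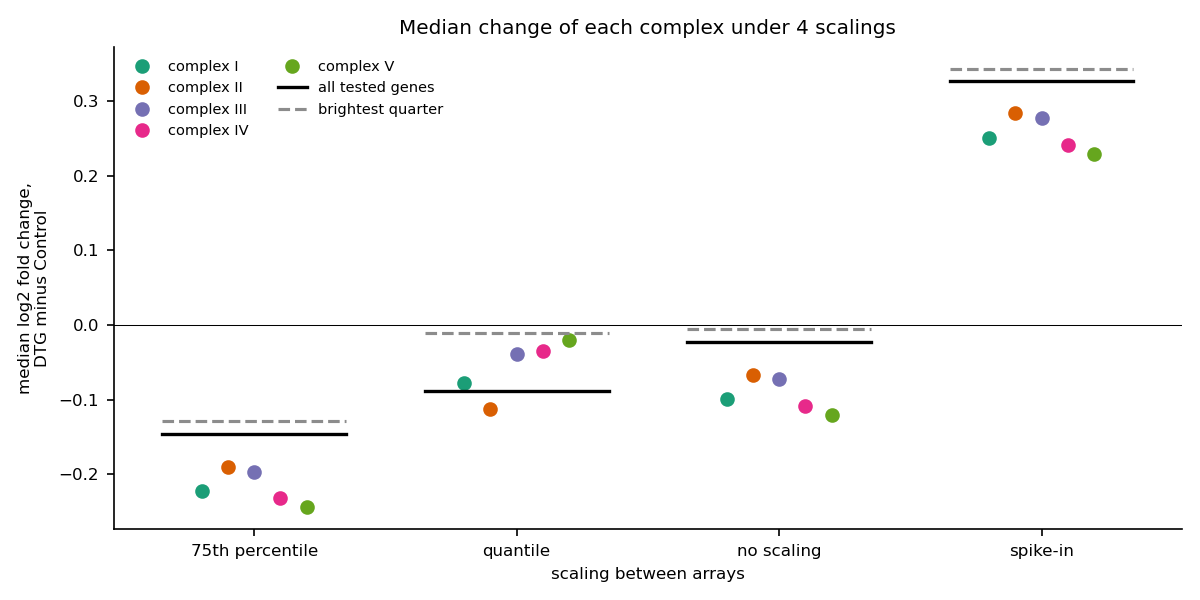
Median log2 fold change (DTG minus Control) of complexes I to V under 4 ways of scaling the arrays, with the medians of all tested genes (solid line) and of the 4439 brightest of them (dashed line). All complexes lie below 0 except on the spike-in scale, where they lie between 0.23 and 0.28 and below the 0.33 of all genes.

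Assembly factors, which build the complexes without staying in them, had calls in both directions on the 75th percentile scale. Of 14 complex I assembly factors, 6 were called lower and 1 higher, with a median of -0.27, beside 21.3% and 11.1% of all genes. Spike-in scaling gave 0 lower and 3 higher, with a median of 0.20, beside 2.32% and 30.5% of all genes called. Chain-median scaling gave 1 lower and 1 higher. Ndufaf3 read -0.30, -0.35, -0.05 and -0.16 in DTG, against 0.41, 0.62, 0.50 and 0.43 in Control, for a fold change of -0.70 (limma adjusted p = 0.00174). Foxred1 gave -0.38 (adjusted p = 0.0158), and Tmem126b was the one called higher, at 0.44 (adjusted p = 0.00884). Of 31 tested factors for complexes II to V, 6 were called lower and 4 higher, with a median of -0.08. For these factors spike-in scaling gave 0 lower and 10 higher, beside 30.5% of all genes called higher. On the 75th percentile scale these included complex III factors in both directions. Bcs1l, which inserts the Rieske protein, gave -0.75 (adjusted p = 0.00225) and Uqcc3 -0.56 (adjusted p = 0.00327). Uqcc1 read 0.87, 0.59, 0.43 and 0.72 in DTG, against -0.51, -0.16, -0.28 and -0.10 in Control, a difference of 0.92 (adjusted p = 0.00173). All DTG arrays were above all Control arrays for Uqcc1 and below them for Ndufaf3, Bcs1l and Uqcc3.

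Carriers and regulators that serve the chain were called in part, downward on the 75th percentile scale. On the spike-in scale the calls were upward, where 30.5% of all genes were called higher and 2.32% lower. Of 18 genes of electron carriers and ATP export, 6 were called lower and 0 higher, with a median of -0.25, beside 21.3% and 11.1% of all genes. Spike-in scaling gave 0 lower and 3 higher, and chain-median scaling 0 in either direction. Coq2, an enzyme of ubiquinone synthesis, gave -0.44 (limma adjusted p = 0.0121), and Etfa and Etfb, the electron transfer flavoprotein that feeds ubiquinone, gave -0.40 and -0.36 (adjusted p = 0.00687 and 0.0172). Of 21 regulators of mitochondrial biogenesis, 6 were called lower and 0 higher, with a median of -0.25. Spike-in scaling gave 0 lower and 6 higher, and chain-median scaling 2 lower and 4 higher. Tfb1m, which modifies mitochondrial ribosomal RNA, gave -0.69 (adjusted p = 0.00374), the nuclear receptor Ppara -0.61 (adjusted p = 0.002) and the muscle coregulator Perm1 -0.75 (adjusted p = 0.00979). The coactivator Ppargc1a read -0.02, 0.46, -0.19 and -0.09 in DTG, against 0.93, 0.87, 0.45 and 0.14 in Control. Its groups overlapped through DTG 2 and Control 4, and its -0.56 was not called (adjusted p = 0.0732).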

How the data were processed

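The deposited table of each array holds 1 line per spot, with brightness as a linear intensity. Per the file headers the authors ran Agilent Feature Extraction 11.5.1.1, while the submitters' processing notes name version 10.7. The processed signal used here had its background taken off by that software, per the file headers. The authors also deposited a value table for 43861 probes, of which 99.6% of values matched the mean processed intensity to within a relative 0.001, and this table served as an alternative. Groups were taken from each sample's tissue label, and replicates were numbered in deposit order.

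Accessions were matched to RefSeq gene names (GRCm38.p6 table), which named 26756 of 55681 probes. The headers name build mm9, and no coordinates of the arrays were used. Signals were put on the log2 scale, outlier-flagged spots and control spots were left out, and each array's 75th percentile was subtracted. Probes well above background on at least 3 of 4 arrays of a group were kept, the brightest standing for its gene. The groups were tested with limma 3.58.1 in R 4.3.3 (two-sided, DTG minus Control), and p-values were adjusted by Benjamini-Hochberg over 17756 genes. The number of arrays limits the precision, and the median SE over the members was 0.10. Single measures were compared by exact permutation over 70 assignments.

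Named with values were all called members, in each complex the 3 members with the smallest p and up to 2 changed the other way, the Sdh subunits, the isoform families, Ppargc1a and the 3 genes of smallest p in each list read beside the members. The members, lists and rule were chosen with earlier results of these data known. Marker genes named as examples were chosen after their values were seen. The isoform differences, name families and the scaling to the chain's own median were added after the data were seen. Alternatives covered scaling, background correction, filters, probe choice, the variance model, the Xist class, the slide column and leaving out each array. One member is not reported singly here or drawn in the figures. The script was tested on simulated data. Pseudogenes of several members are annotated, and whether probes also read them was not tested.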

Additional observations from a re-analysis of the deposited data

Results flagged for a closer look

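In 4 of 82 groups of 4 arrays tested for the named members and the isoform differences, 1 array lay far from the other 3, where chance gives about 1 in 20. Ndufa5, an accessory subunit of complex I, had its lowest DTG level of 3.27 on DTG 2, with the other DTG arrays between 3.42 and 3.44. Ndufs8, a core subunit of complex I, likewise had its lowest DTG level of 2.32 on DTG 2, with the others between 2.56 and 2.61. DTG 2 was the lowest array for most members. Uqcrfs1, the Rieske protein of complex III, had its highest Control level of 2.89 on Control 3, the other Control arrays being at 2.78 to 2.80. The difference Cox7a1 minus Cox7a2 was -0.72 on DTG 2, with -0.87 to -0.85 on the other DTG arrays. No cause was tested for any of the 4.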

How the results depend on the processing

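The direction of the chain's median turned under spike-in scaling. Chain-median scaling sets that median near 0 by construction, so its sign there carries no information. Under every other alternative the direction held. Ndufa4l2 was lower in all 25 alternatives, 1 of which, the low-Xist arrays, held a lone DTG array. No paired analysis was possible because the labels give no replicate numbers shared between the groups; the slide column served as a block instead. Over all genes, 5747 calls became 3823 without scaling, 2587 on the high-Xist arrays and 249 on the low-Xist arrays, and ran from 4060 to 5154 without 1 array. The 18 members called lower became 10 under quantile scaling, 5 without scaling, 1 under spike-in scaling and 6 under chain-median scaling. They became 32 with an intensity trend, 10 with the slide column as a block, 1 on the high-Xist arrays and 6 to 23 without 1 array. Among all genes the shares called lower were 18.5% under quantile scaling, 8.97% without scaling, 2.32% under spike-in scaling and 7.41% under chain-median scaling. They were 21.7% with an intensity trend, 15.7% with the slide column as a block and 7.90% on the high-Xist arrays. With 1 array left out they ran from 14.3% to 19.4%. Members called higher numbered 6 under spike-in scaling, against 30.5% of all genes. They numbered 2 with no filter (Cox7b2 and Cox8c, which have no signal above background), against 15.6%, and 0 otherwise, also without 1 array. Under quantile scaling the median log2 fold change was -0.064 over the members, with -0.077 for complex I, -0.11 for complex II, -0.040 for complex III, -0.034 for complex IV and -0.021 for complex V. Without scaling the median log2 fold change was -0.10 over the members, with -0.100 for complex I, -0.067 for complex II and -0.073 for complex III. Under spike-in scaling the median log2 fold change was 0.25 over the members, with 0.25 for complex I, 0.28 for complex II, 0.28 for complex III, 0.24 for complex IV and 0.23 for complex V. Under chain-median scaling the median log2 fold change was 0.020 over the members, with 0.024 for complex I, 0.057 for complex II, 0.051 for complex III, 0.015 for complex IV and 0.0030 for complex V. On the low-Xist arrays the median log2 fold change was -0.44 over the members, with -0.45 for complex I, -0.30 for complex II, -0.36 for complex III, -0.45 for complex IV and -0.49 for complex V. On the high-Xist arrays the median log2 fold change was -0.10 over the members, with -0.12 for complex I, -0.060 for complex III, -0.082 for complex IV and -0.073 for complex V. Testing every probe by itself moved that of complex II to -0.24. Without 1 array the members' median ran from -0.28 to -0.17, and those of complexes I to V from -0.28 to -0.18, -0.22 to -0.18, -0.25 to -0.16, -0.29 to -0.17 and -0.30 to -0.17.

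Log2 fold changes of single genes turned their sign mainly with the scaling. Under spike-in scaling they were Atp5g1 0.14, Atp5g2 0.16, Atp5g3 0.16, Atp5j2 0.065, Coq2 0.031, Cox4i1 0.24, Cox6a1 0.24, Cox6a2 0.097, Cox6b1 0.25, Cox7a2 0.23, Cox7a2l 0.27, Cox7b 0.21, Cox8a 0.37, Decr1 0.014, Eno3 0.012, Etfa 0.074, Etfb 0.11, Foxred1 0.090, Ndufa4 0.26, Ndufa5 0.14, Ndufab1 0.020, Ndufc2 0.13, Ndufs7 0.13, Ndufs8 0.13, Phb2 0.0096, Sdha 0.29, Sdhb 0.15, Sdhc 0.27, Sdhd 0.29, Tomm70a 0.23, Uqcr11 0.091, Uqcrb 0.17, Uqcrc1 0.22 and Vdac1 0.21. Under chain-median scaling they were Cox4i1 0.014, Cox6a1 0.016, Cox6b1 0.020, Cox7a2 0.0047, Cox7a2l 0.047, Cox8a 0.15, Ndufa4 0.038, Sdha 0.067, Sdhc 0.048, Sdhd 0.067 and Tomm70a 0.0085. Under quantile scaling they were Cox4i1 0.030, Cox8a 0.049 and Ndufa4 0.015, and the isoform difference Cox4i2 minus Cox4i1 became -0.013. Without scaling Cox8a was 0.025. On the high-Xist arrays they were Cox8a 0.15 and Ucp3 -0.076. Uqcrfs1, near 0, was -0.0012 with median scaling, -0.012 with normexp, -0.036 on the low-Xist arrays and -0.0067 to 0.070 without 1 array. Without 1 array Cox4i2 ran from -0.084 to 0.15, below 0 without Control 4 or DTG 2. Ucp3 was -0.61 over the average of its probes and -0.025 to 0.19 without 1 array. That single-number scalings move every gene of an array by the same amount follows from their construction; beyond this the cause of the differences was not tested. The higher negative-control signal in DTG limits what dim probes can show there.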

Other observations

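Metabolic genes that feed the chain were called lower in DTG in part on the 75th percentile scale, which did not hold on the spike-in scale. Of 25 genes of the citric acid cycle and of pyruvate entry, 8 were called lower and 0 higher by limma, with a median log2 fold change of -0.24, beside 21.3% and 11.1% of all genes. Spike-in scaling gave 1 lower and 4 higher, beside 2.32% and 30.5% of all genes. Pdk1, a kinase that inhibits pyruvate dehydrogenase, read -1.87, -1.72, -1.73 and -1.53 in DTG, against -0.23, -0.86, -0.52 and -0.62 in Control. The groups did not overlap, with a fold change of -1.16 (SE 0.14, limma adjusted p = 0.000908). Pdk3, a related kinase, gave -0.55, and Dlat, a subunit of pyruvate dehydrogenase itself, gave -0.58. Of 16 genes of fatty acid beta-oxidation, 5 were called lower and 0 higher, with a median of -0.21, and spike-in scaling gave 0 in either direction. The enzymes Acaa2, Echs1 and Decr1 gave -0.59, -0.54 and -0.46, and their DTG arrays all lay below their Control arrays.

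Of 19 glycolysis genes, 5 were called lower and 0 higher, with a median of -0.13, beside 21.3% and 11.1% of all genes. For glycolysis spike-in scaling gave 1 lower and 7 higher, beside 2.32% and 30.5% of all genes. Aldoc, an aldolase, read 0.20, 0.10, 0.20 and 0.22 in DTG, against 1.52, 1.23, 1.43 and 1.18 in Control. It changed by -1.16 (SE 0.10, limma adjusted p = 0.000215). The insulin-responsive glucose transporter Slc2a4, which was also among the adipocyte markers, gave -0.55, and the muscle enolase Eno3, measured on 3 DTG arrays, gave -0.45. Of 15 genes of the outer membrane and of protein import, 1 was called lower and 0 higher, with a median of -0.13, and spike-in scaling gave 0 lower and 3 higher. The gene called lower was Phb2, a prohibitin of the inner membrane, at -0.46, while the pore Vdac1 (-0.26) and the import receptor Tomm70a (-0.24) were not called. The uncoupling proteins Ucp1, Ucp2 and Ucp3 gave 0.70, 0.18 and 0.08, none of them called by limma and 0 also at an unadjusted p under 0.05, while spike-in scaling called 2 of the 3 higher.

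Cox7b2 and Cox8c, which were not above background on any array, read -7.75 to -7.47 and -7.66 to -7.38 in DTG, against -9.48 to -8.48 and -9.36 to -8.55 in Control. Negative-control spots differed the same way, with a mean log2 signal of 4.46 in DTG and 2.85 in Control before scaling.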
